A study of Homo sapiens with 6 samples.

Results

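Vitamin A (retinol) acts in cells mostly after it has been turned into retinoic acid, and the 9 genes described here bind, take up or convert retinoids: RBP2, RBP5, CRABP1, CRABP2, DHRS3, RDH10, STRA6, LRAT and ALDH1A2. They were picked by gene symbol from the 28265 genes of the deposited count table, with the difference between LHX2 and control libraries already known. Their differences between the groups are therefore given as a description, without p-values, and nothing is supported with them. Huh7, an established line of human hepatocellular carcinoma cells grown with fetal bovine serum, was harvested 48 h after lentiviral transduction. In 3 libraries the vector expressed LHX2, which encodes a LIM-homeodomain transcription factor, and in the other 3 the cells, labelled parental, carried a control vector. The labels name neither the promoter that drives LHX2 nor separate cultures behind the replicates, so the p-values below reflect the spread among these libraries, and that spread may be technical. Values of the 3 libraries of a group are given in the order of their replicate numbers.

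Retinol travels in plasma on RBP4, which circulates bound to transthyretin (TTR), and enters some cells through the receptor STRA6. Inside the cell it is held by cellular retinol-binding proteins (RBP2, RBP5 and RBP7 among them), stored as retinyl esters made by LRAT, or oxidised to retinal by retinol dehydrogenases such as RDH10, a step that the retinal reductase DHRS3 runs in reverse. Retinal dehydrogenases of the ALDH1A family make retinoic acid, CRABP1 and CRABP2 bind it, nuclear receptors of the RAR and RXR families read it, and CYP26 enzymes break it down. In the liver, hepatocytes take up dietary retinol and secrete RBP4, while stellate cells hold most of the ester stores.

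The promoter sequences of 4 genes are shown because the results below turn on their transcripts. RBP2 and DHRS3 had the largest fall and the largest rise among the described genes with enough reads to be tested, and RARB and CYP26A1 are receptor and hydroxylase genes known as targets of retinoic acid. Each is the stretch of 250 bases before a RefSeq transcript start (build GRCh38.p14), 5′ to 3′ on the strand of the gene. Capitals mark the letters TATAAA in RBP2 and, in RARB and CYP26A1, a DR5 element, the arrangement retinoic acid receptors are known to bind. It has 2 copies in a row, 5 bases apart, of a motif searched for on both strands in any of the following spellings. The first is AGGTCA, and another common spelling is AGTTCA. The variant GGGTCA was also allowed as a copy in the search, and so was the spelling GGTTCA.
RBP2, chr3:139476517-139476766, minus strand: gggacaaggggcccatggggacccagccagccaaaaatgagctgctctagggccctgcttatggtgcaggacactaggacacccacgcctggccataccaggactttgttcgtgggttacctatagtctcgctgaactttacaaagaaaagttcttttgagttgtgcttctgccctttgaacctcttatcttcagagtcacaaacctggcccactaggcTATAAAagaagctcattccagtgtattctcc
DHRS3, chr1:12618211-12618460, minus strand: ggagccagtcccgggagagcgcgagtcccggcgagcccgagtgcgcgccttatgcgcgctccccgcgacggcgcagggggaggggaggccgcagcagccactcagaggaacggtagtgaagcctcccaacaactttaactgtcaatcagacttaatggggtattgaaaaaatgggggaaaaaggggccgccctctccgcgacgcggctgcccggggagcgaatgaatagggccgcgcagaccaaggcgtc
RARB, chr3:25428013-25428262, plus strand: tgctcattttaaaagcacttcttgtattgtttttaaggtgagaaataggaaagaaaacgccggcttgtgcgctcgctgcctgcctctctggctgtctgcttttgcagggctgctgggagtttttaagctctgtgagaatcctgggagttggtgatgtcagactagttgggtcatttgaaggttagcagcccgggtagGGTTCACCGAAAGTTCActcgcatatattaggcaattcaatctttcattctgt
CYP26A1, chr10:93073643-93073892, plus strand: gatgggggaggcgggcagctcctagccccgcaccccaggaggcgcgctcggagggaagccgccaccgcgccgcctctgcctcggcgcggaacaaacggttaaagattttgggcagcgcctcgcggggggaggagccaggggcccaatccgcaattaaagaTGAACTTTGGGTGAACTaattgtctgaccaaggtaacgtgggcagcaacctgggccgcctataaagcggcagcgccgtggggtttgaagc

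A DR5 element on either strand was in 31 of 35116 promoter windows of 300 bases (250 before and 50 after a start), or 0.0883%. It was in none of the 15 windows of the 8 described genes that had a window. Among 50 other retinoid and retinoic acid-induced genes with a window, it was in RARB and CYP26A1. In RARB it lay 53 to 37 bases before the start shown, and in CYP26A1, on the opposite strand, 90 to 74 bases before it. The homeodomain motif TAATTA was in 4.84% of all windows and TAATTG in 7.38%, both strands searched, and neither was in a window of the described genes. The letters TATAAA, found in 11.5% of windows, lay 31 to 26 bases before the start of RBP2. DHRS3 had 3 listed starts, RARB 4 and CYP26A1 2, and gene-level counts do not show which start was used.

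LHX2 itself checked the labels, with 1, 2 and 1 reads in the control libraries against 2535, 2427 and 3126 reads in those given the LHX2 vector. Library totals ran from 30029313 to 39653681 reads. In the edgeR quasi-likelihood test, 4716 of 14533 tested genes passed a Benjamini-Hochberg adjusted p under 0.05. All 10 hepatocyte markers were detected, with a summed level of 49117 to 50491 CPM (counts per 1e6 reads, scaled with TMM factors) in control and 45742 to 50149 CPM in LHX2 libraries. TF rose, and TTR, SERPINA1 and HNF4A fell. Of the 16 stellate cell markers 7 were tested. CYGB, LUM, TAGLN, COL1A2 and PDGFRA rose, RELN fell and GFAP did not pass. DES, HAND2, DCN and ACTA2 had 3 reads or fewer over all libraries. COL1A1 (21 reads summed over control and 28 over LHX2 libraries), COL3A1 (24 and 8), PDGFRB (22 and 4), HGF (10 and 0) and NGFR (4 and 1) were not tested. The summed level was 298 to 320 CPM in control and 243 to 260 CPM in LHX2 libraries. Most of that sum was RELN, at 268.8 ± 12.4 and 177.4 ± 10.8 CPM (SD, n = 3). The sum thus fell with RELN, while most of the markers that passed rose. Of 6 biliary markers KRT19 and EPCAM rose (all 6 summed 173 to 179 and 182 to 193 CPM), and SOX9 and SPP1 did not pass. CFTR (48 reads summed over control and 14 over LHX2 libraries) was not tested, and KRT7 had 0 reads. Most of the biliary sum was SOX9, at 132.1 ± 2.46 CPM in control and 128.4 ± 2.27 CPM in LHX2 libraries (SD, n = 3). Of 6 endothelial markers PECAM1 fell (3.75 to 4.31 and 2.77 to 3.22 CPM), while CDH5, VWF, KDR, STAB2 and LYVE1 had 3 reads or fewer. Of 6 leukocyte markers CD68 and LYZ rose (summed 470 to 500 and 612 to 678 CPM), CD14 did not pass, and CD163 and HLA-DRA were at 3 reads or fewer. Nearly all of that sum was LYZ, at 471.8 ± 15.2 CPM in control and 635.1 ± 35.7 CPM in LHX2 libraries (SD, n = 3). PTPRC had 2 reads summed over control and 3 over LHX2 libraries. The marker genes given here were named after their values were seen. The samples are an established cell line, so these lists check its label and do not count cell types of a tissue. The part of these markers in the results below was not tested. Bulk RNA does not show whether a change was in all cells of the line or in some of them.

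Only 4 of the 9 genes had enough reads to be tested, RBP2, RBP5, DHRS3 and RDH10, and the other 5 had 10 reads or fewer in every library. In the fit over all genes, from which they were chosen, these 4 were past the threshold, 2 higher and 2 lower with LHX2, as were 32.5% of all tested genes (16.6% higher and 15.8% lower). The groups overlapped for none of the 4, as for 44.9% of all tested genes, and of the 5 untested genes CRABP2 was the one whose groups did not overlap, as for 9.56% of the 6352 untested genes with reads. Since these genes were chosen from this contrast, nothing is read from those counts. DHRS3 and RDH10, enzymes that act between retinol and retinal, had 1713 to 3325 reads per library and were both higher. RBP2 and RBP5, retinol-binding proteins, had 95 to 373 reads and were both lower.

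**Figure D1:**
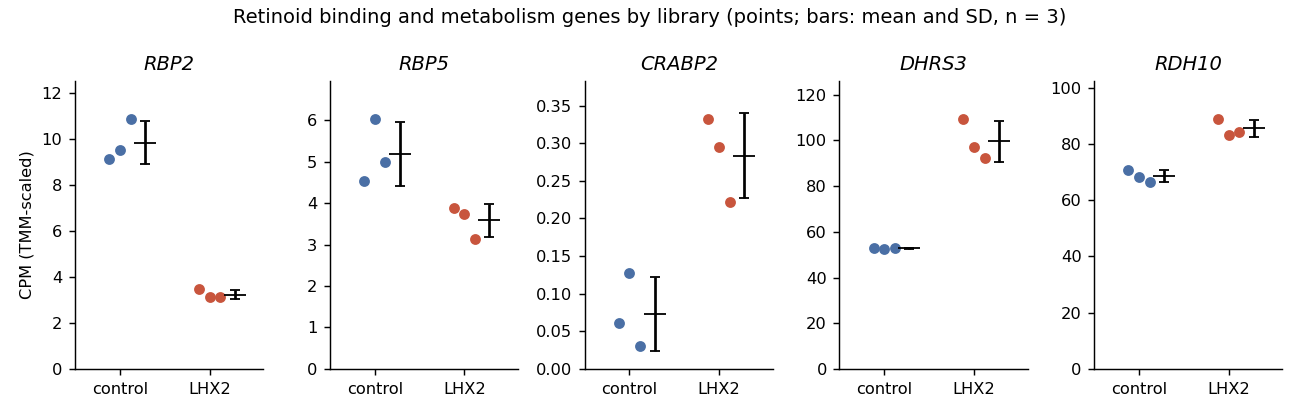
Level in each library (CPM, TMM-scaled, linear axes from 0) of RBP2, RBP5, CRABP2, DHRS3 and RDH10. Control is in blue and LHX2 in red, with the mean and SD of 3 libraries as black bars. The described genes with the fewest reads, CRABP1, STRA6, LRAT and ALDH1A2, are not drawn. RBP2 and RBP5 were lower and CRABP2, DHRS3 and RDH10 higher in every LHX2 library than in any control library, with CRABP2 at 0.333 CPM or less throughout.

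RBP2 encodes cellular retinol-binding protein II, best known from the enterocytes of the small intestine, where it hands retinol to LRAT. It lies on chromosome 3 from 139452884 to 139476516. Its level was 9.09, 9.51 and 10.9 CPM in control replicates 1 to 3 and 3.46, 3.12 and 3.11 CPM in LHX2 replicates 1 to 3. All control libraries were far above all LHX2 libraries, and each group was tight. The log2 fold change was -1.61 ± 0.11 (SE, n = 3 per group), a 3.04-fold lower level, and 99.2% of tested genes had a smaller change in either direction. It kept a value between -1.66 and -1.53 in all 16 alternative analyses.

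A long noncoding RNA gene, LOC100507291, spans RBP2 and held 10 to 26 reads per library. The strand setting of the counting is not given in the sources used here, so reads of overlapping genes may not have been told apart.

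RBP5 encodes cellular retinol-binding protein III, known from liver and kidney (chromosome 12, 7115736 to 7130005). It was at 4.55, 6.04 and 4.99 CPM in control replicates 1 to 3 and at 3.89, 3.74 and 3.13 CPM in LHX2 replicates 1 to 3. The groups did not overlap, but the gap between the lowest control and the highest LHX2 library was smaller than the SD of the control libraries, 0.770 CPM. The log2 fold change was -0.55 ± 0.14 (SE). It was -0.42 without control replicate 2, and RBP5 was then no longer past the threshold. RBP5 shares 6116 bases with C1RL-AS1, which had 120 to 174 reads in control and 154 to 209 reads in LHX2 libraries. RBP5 itself had 148, 237 and 162 reads in control and 117, 114 and 113 reads in LHX2 libraries. C1RL-AS1 thus had fewer reads than RBP5 in each control library and more in each LHX2 library. RBP5 also shares 913 bases with CLSTN3, which had more reads than RBP5, 824 to 1071 in control and 790 to 1004 in LHX2 libraries.

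RBP7, a further cellular retinol-binding protein, was not among the genes chosen. It rose from 0.860, 0.638 and 0.493 to 0.998, 1.67 and 1.11 CPM (log2 fold change 0.92 ± 0.28, SE, edgeR adjusted p = 0.021). Its counts were low, 16 to 51 reads per library, and leaving out control replicate 2 (0.89), control replicate 3 (0.76) or LHX2 replicate 2 (0.67) ended the call.

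Divided by the length of each gene's longest transcript, the transcripts of RBP2, RBP5 and RBP7 summed to 20.1 ± 1.32 CPM per kilobase in control and 9.66 ± 0.695 CPM per kilobase in LHX2 libraries (SD, n = 3). RBP2 made up 70.5 ± 3.44% of that sum in control and 48.2 ± 3.40% in LHX2 libraries, and stayed the largest part in each of the 6 libraries. The share of RBP5 was 25.6 ± 3.22% and 36.6 ± 1.78%, and that of RBP7 3.90 ± 1.36% and 15.1 ± 3.82%. A share rises when another falls, and these sums rest mainly on the genes chosen for their change, so they too are a description, chosen after the values were seen.

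**Figure D2:**
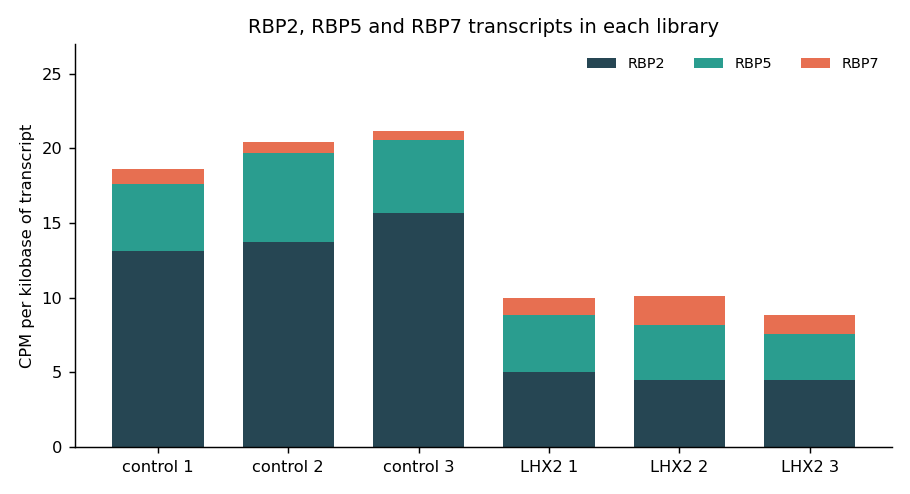
Stacked bars of the level per transcript length (CPM per kilobase, linear axis from 0) of RBP2, RBP5 and RBP7 in each of the 6 libraries. The bars reach 18.6 to 21.2 in the control and 8.86 to 10.1 in the LHX2 libraries, and the RBP2 segment shrinks the most.

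CRABP2, which carries retinoic acid to its nuclear receptors (chromosome 1, 156699606 to 156705784), was barely expressed. It had 2, 5 and 1 reads in control replicates 1 to 3 and 10, 9 and 8 reads in LHX2 replicates 1 to 3. These were too few to pass the filter on low counts of the main edgeR fit. In the alternative without a filter its log2 fold change was 1.83 ± 0.66 (SE) and it was past the threshold. That fit had 4959 genes past it, 5 of them described here, beside 4 in the main fit, and nothing is read from this. Scaled to library size, the summed reads were 3.64-fold higher with LHX2 (95% interval 1.61 to 9.28, exact binomial, for counting error alone). Each LHX2 library was above each control library, as was so for 9.43% of the 1676 untested genes with 20 to 50 reads over the libraries, a range chosen after the counts of CRABP2 were seen. At 0.274 CPM per kilobase in the LHX2 libraries, CRABP2 stayed far below DHRS3 or RDH10. CRABP1, the other retinoic acid-binding protein (chromosome 15, 78340353 to 78348225), had 0 reads in every library, which allows up to 0.0765 to 0.0998 CPM, the level of 3 reads.

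DHRS3 reduces retinal back to retinol and is itself known to be induced by retinoic acid (chromosome 1, 12567910 to 12618210). It had 53.0, 52.4 and 52.7 CPM in control replicates 1 to 3 and 109.5, 97.0 and 92.2 CPM in LHX2 replicates 1 to 3. The control libraries were nearly equal (SD 0.317 CPM), while the LHX2 libraries spread more (SD 8.94 CPM) and were all far above them. The log2 fold change was 0.92 ± 0.06 (SE), a 1.89-fold higher level, and 96.7% of tested genes changed less. It lay between 0.84 and 0.97 in the 16 alternative analyses.

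RDH10 oxidises retinol to retinal and is the dehydrogenase needed for retinoic acid synthesis in the embryo (chromosome 8, 73294602 to 73325281). It had 70.7, 68.3 and 66.5 CPM in control and 89.0, 83.3 and 84.2 CPM in LHX2 libraries. The groups did not overlap, and the log2 fold change was 0.32 ± 0.04 (SE), a 1.25-fold higher level, with values of 0.28 to 0.35 in the alternatives. DHRS3 and RDH10 run the same step in opposite directions, and both were higher. Per transcript length, the ratio of DHRS3 to RDH10 within a library was 1.72, 1.76 and 1.82 in control and 2.82, 2.67 and 2.51 in LHX2 libraries, a ratio that does not depend on library scaling and was chosen after the values were seen.

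LRAT, ALDH1A2 and STRA6 were at the limit of detection. LRAT, which makes retinyl esters (chromosome 4, 154740838 to 154753120), had 1, 3 and 0 reads in control and 2, 0 and 3 reads in LHX2 libraries. ALDH1A2, the main retinal dehydrogenase of the early embryo (chromosome 15, 57953429 to 58065711), had 2, 1 and 2 reads in control and 0, 0 and 1 reads in LHX2 libraries. STRA6, the RBP4 receptor (chromosome 15, 74179466 to 74212259), had 2 reads in LHX2 replicate 1 and none elsewhere. The LHX2 and control libraries overlapped for LRAT, ALDH1A2 and STRA6. The ratio of summed reads was 1.35 for LRAT (95% interval 0.290 to 6.80) and 0.216 for ALDH1A2 (0.00456 to 1.93), so that no difference was detectable at this depth, and no fold is given for STRA6.

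Levels per transcript length, in CPM per kilobase of the longest transcript, put the described genes in the order DHRS3 (30.6 ± 0.184), RDH10 (17.3 ± 0.524), RBP2 (14.2 ± 1.34), RBP5 (5.13 ± 0.761) and CRABP2 (0.0709 ± 0.0479) in control libraries (SD, n = 3). The ranges of neighbours in this order did not overlap. ALDH1A2 and LRAT followed at 0.0121 and 0.00715 and overlapped each other. In LHX2 libraries the order of the first 5 was the same, with DHRS3 at 57.8 ± 5.19, RDH10 at 21.6 ± 0.776, RBP2 at 4.65 ± 0.290 and RBP5 at 3.55 ± 0.396. RBP2 and RBP5, far apart in the control, thus came close but did not overlap (lowest RBP2 4.48, highest RBP5 3.85).

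**Figure D3:**
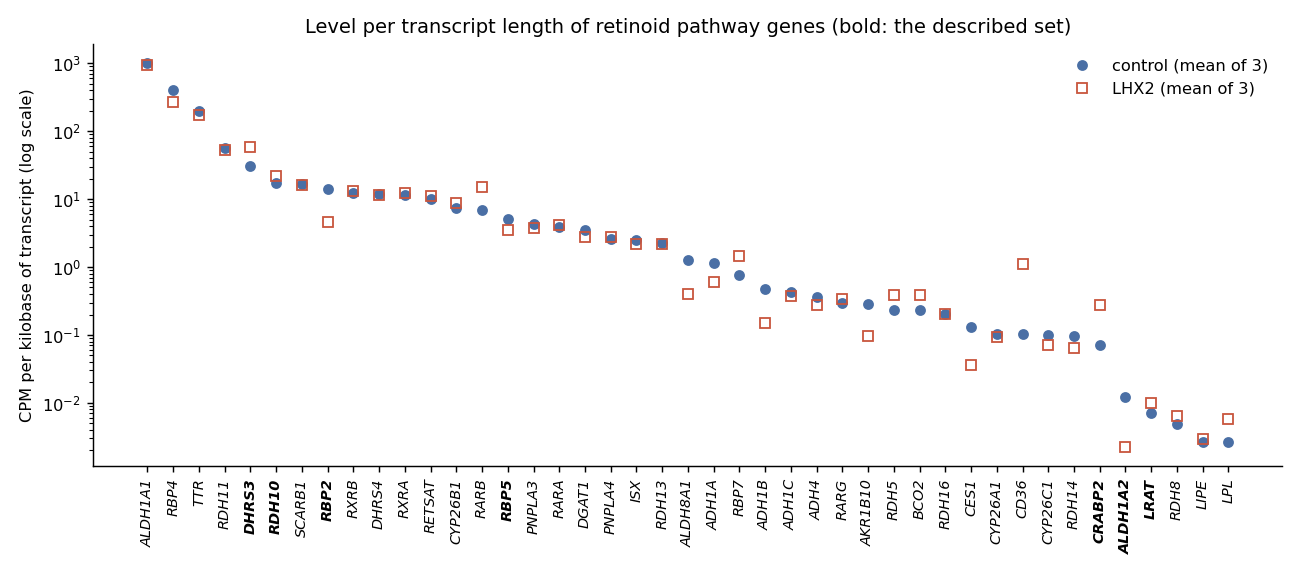
Mean level per transcript length (CPM per kilobase, log axis) of the 43 retinoid pathway genes with reads in both groups, ordered by the control mean, with control as filled blue circles and LHX2 as open red squares. ALDH1A1, RBP4 and TTR are the most abundant, RBP2 drops below RBP5's control level, and points under about 0.02 rest on a few reads.

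The rest of the pathway was taken from lists of 46 genes other than those described, of which 30 were tested. With LHX2, 5 rose, 9 fell and 16 did not pass, where 16.6% of all tested genes rose and 15.8% fell. The median log2 fold change of the 30 was -0.05, beside 0.01 over all tested genes. Without control replicate 2 the counts were 3 higher and 6 lower, without control replicate 3 they were 3 and 7, and without LHX2 replicate 2 they were 6 and 6.

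Among carriers, RBP4, the plasma carrier of retinol, fell from 560, 544 and 474 CPM in control replicates 1 to 3 to 319, 328 and 402 CPM in LHX2 replicates 1 to 3 (log2 fold change -0.59 ± 0.08, SE, edgeR adjusted p = 3.9e-05). LHX2 replicate 3 stood above the other LHX2 libraries and still below every control library. TTR was 203.6 ± 6.27 CPM in control and 180.6 ± 5.58 CPM in LHX2 libraries (SD, n = 3), a fall that passed with an edgeR adjusted p of 3.9e-03. DGAT1, a diacylglycerol acyltransferase that also esterifies retinol, fell by 0.32 on the log2 scale (edgeR adjusted p = 0.015), but not past the threshold without LHX2 replicate 2 (-0.23).

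Of 6 tested retinol dehydrogenases outside the described set, ADH1B and ADH1A, alcohol dehydrogenases that oxidise retinol as well as ethanol, fell and 4 did not pass. ADH1B went from 2.56 ± 0.206 to 0.808 ± 0.146 CPM (SD, n = 3; log2 fold change -1.65 ± 0.19, SE, edgeR adjusted p = 1.4e-05) and ADH1A from 1.72 ± 0.141 to 0.916 ± 0.318 CPM (edgeR adjusted p = 9.6e-03). ADH1A, ADH1B and ADH1C are near-identical copies, so that shared reads leave the value of each uncertain. Both had 17 to 102 reads per library, far fewer than RDH10 with 2161 to 3035.

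Of 5 tested retinal reductases and related enzymes, AKR1B10, an aldo-keto reductase that reduces retinal, and RDH11, a reductase of the endoplasmic reticulum, fell and 3 did not pass. AKR1B10 had 12 to 23 reads in control and 4 to 6 reads in LHX2 libraries (log2 fold change -1.54 ± 0.41, SE, edgeR adjusted p = 9.3e-03), and did not pass without control replicate 2 (-1.29). It has a close copy in its family, so its value is uncertain. RDH11, with 231.8 ± 6.16 and 213.3 ± 3.15 CPM (SD, n = 3), changed by -0.12 (edgeR adjusted p = 0.024). The call was lost when control replicate 2 (-0.12), control replicate 3 (-0.10) or LHX2 replicate 2 (-0.11) was left out, and with library totals alone (-0.09).

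Retinal dehydrogenase transcripts were dominated by ALDH1A1, the form of adult liver, at 1006 ± 4.02 CPM per kilobase in control and 934 ± 16.3 in LHX2 libraries (SD, n = 3), above every other gene of the pathway. Its log2 fold change of -0.11 ± 0.04 (SE) passed the edgeR test narrowly (adjusted p = 0.045). Leaving out any control library (-0.11, -0.10 and -0.11 without replicates 1, 2 and 3) or LHX2 replicate 2 (-0.11) took it past 0.05, as did scaling by library totals alone (-0.08), the filter of 1 CPM in 3 libraries (-0.10) and removing a trend with length and GC (-0.05). ALDH8A1, which acts on 9-cis-retinal and in tryptophan breakdown, fell from 3.38, 2.88 and 3.36 CPM to 1.10, 0.984 and 0.999 CPM (3.11-fold lower, edgeR adjusted p = 4.0e-06). ALDH1A3 had 0 reads in all libraries.

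The hydroxylases that clear retinoic acid differed in level. CYP26B1 rose slightly, from 34.8 ± 2.36 to 40.9 ± 1.31 CPM (SD, n = 3; log2 fold change 0.23 ± 0.06, SE, edgeR adjusted p = 6.1e-03). CYP26A1, the hydroxylase that retinoic acid is best known to induce and whose promoter held the DR5 element shown above, had 10, 8 and 6 reads in control and 6, 8 and 6 reads in LHX2 libraries. The ratio of its summed reads was 0.899 (exact binomial 95% interval 0.471 to 1.70, counting error only), so that no difference was detectable at this depth.

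RARB, the retinoic acid receptor beta gene, rose from 21.7, 21.8 and 21.2 CPM in control replicates 1 to 3 to 48.7, 48.1 and 43.5 CPM in LHX2 replicates 1 to 3. No library of one group came near the other, and the log2 fold change was 1.11 ± 0.06 (SE, edgeR adjusted p = 2.4e-09). RARB is also known to be induced by retinoic acid through the DR5 element shown above. The other tested receptors did not pass the edgeR test: RARA differed by 0.07 ± 0.10 (SE, adjusted p = 0.64), RARG by 0.20 ± 0.23 (adjusted p = 0.56) and RXRA by 0.14 ± 0.06 (adjusted p = 0.084). RXRB, named after its value was seen, differed by 0.11 ± 0.06 (SE, edgeR adjusted p = 0.19). RXRA passed without LHX2 replicate 2 (0.19), while RARA was -0.027 without LHX2 replicate 3 and -0.0094 with the length and GC trend taken out.

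In the list for carotenoid uptake and cleavage CD36 and BCO2 rose and 2 of 4 did not pass. CD36, a scavenger receptor for fatty acids and carotenoids, had 27, 16 and 21 reads in control and 173, 230 and 254 reads in LHX2 libraries (log2 fold change 3.46 ± 0.20, SE, edgeR adjusted p = 6.9e-09). BCO2, which cleaves carotenoids in mitochondria, rose by 0.72 ± 0.23 (SE, edgeR adjusted p = 0.029) at about 1 CPM. Its call held without LHX2 replicate 3 and was lost without any other single library, at values of 0.65 to 0.76, and it was lost with DESeq2 (0.72).

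**Figure D4:**
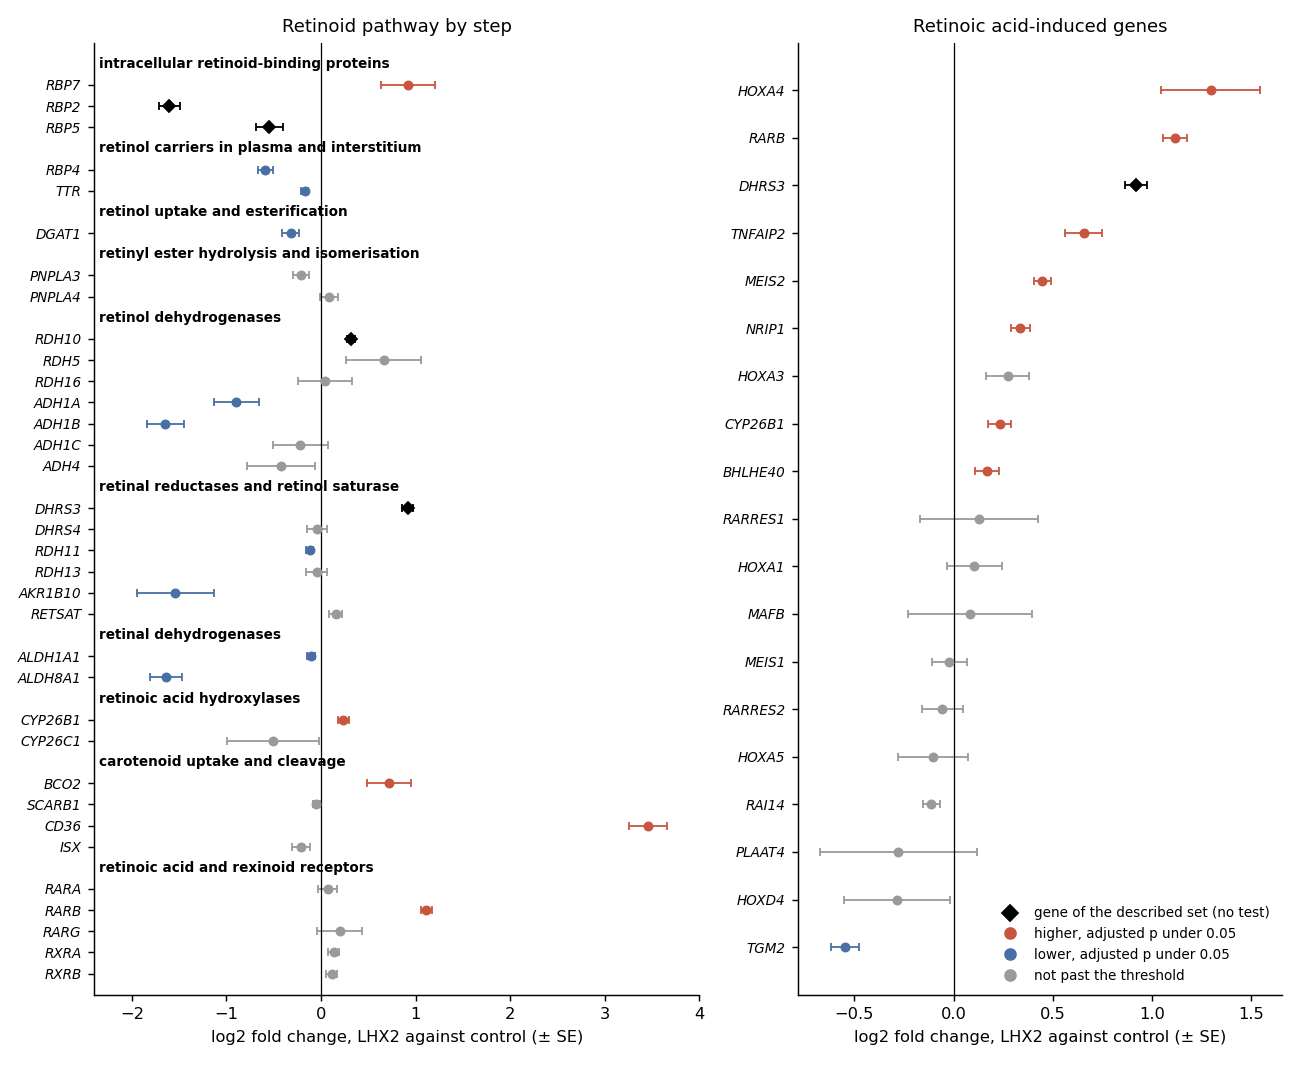
Log2 fold change of LHX2 against control with its SE for every tested gene of the retinoid lists, by step (left), and of the retinoic acid-induced list (right). Black diamonds are the described genes, red and blue circles are genes higher or lower at an edgeR adjusted p under 0.05, and grey circles did not pass. RBP2, ADH1B and ALDH8A1 lie near -1.6, DHRS3 and RARB near 1, and CD36 at 3.46.

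Genes known to be induced by retinoic acid were listed apart, since 4 of the described genes (DHRS3, CRABP2, STRA6 and LRAT) belong to them. Of the other 27 genes 18 were tested, of which 7 rose, 1 fell and 10 did not pass (16.6% and 15.8% over all tested genes), with a median log2 fold change of 0.12 beside 0.01. HOXA4, a homeobox gene, rose from 14 to 25 reads per library in the control to 40 to 50 reads with LHX2 (log2 fold change 1.30 ± 0.25, SE, edgeR adjusted p = 1.0e-03). It shares 2233 bases with HOXA3, which did not pass (edgeR adjusted p = 0.067), and 236 bases with HOXA-AS2. TNFAIP2 rose by 0.66 ± 0.09 (edgeR adjusted p = 8.6e-05), and RARB and CYP26B1, given above, are also of this list.

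MEIS2, a homeobox cofactor, rose by 0.45 ± 0.04 (SE, edgeR adjusted p = 2.6e-06), NRIP1, a nuclear receptor corepressor, by 0.34 ± 0.05 (adjusted p = 8.6e-05), and BHLHE40 by 0.17 ± 0.06 (adjusted p = 0.049). These 3 were named after their values were seen. BHLHE40 kept its call without LHX2 replicate 2 and lost it without any other single library (0.14 to 0.18), with RLE factors, with DESeq2 and without a filter (0.16 in each). TGM2, transglutaminase 2, a widely used retinoic acid target, fell from 19.3 ± 0.221 to 13.2 ± 0.387 CPM (SD, n = 3; log2 fold change -0.55 ± 0.07, SE, edgeR adjusted p = 2.7e-05), so that the list held genes moving both ways.

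The genes most like DHRS3 and RBP2 over the 6 libraries were found by the root mean square distance between profiles of log2 CPM, each set to 0 at its control mean, among 12067 other genes. For DHRS3 they were SLC12A2, an ion cotransporter (distance 0.05 log2 units), SLPI, CPA6, EXT1 and PRR15, the last at 0.06. For RBP2 they were AKR1C1 (0.09), ALDH8A1 (0.09), SGK1 (0.12), C7 (0.12) and MYCN (0.13). ALDH8A1, of the same pathway lists, fell to 1.03 ± 0.0620 CPM, and RBP2 to 3.23 ± 0.201 CPM (SD, n = 3). This likeness is over 6 libraries that share 1 contrast and is a description of it.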

How the data were processed

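Polyadenylated RNA of 3 control and 3 LHX2 libraries was measured. The deposited values are raw read counts per gene, which the authors made on GRCh38/hg38 with TopHat2 2.1.1 and featureCounts 2.0.0 among other tools, per the submitters' processing notes. The sources used here name neither the annotation nor the strand setting. The kit was a stranded one, per the labels' protocols, but unstranded counting would mix reads of overlapping genes. The column taken as control replicate 1 is named in another form than the other control columns and ends in 1.

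Genes with low counts were dropped by filterByExpr (minimum count 10, minimum total 15, proportion 0.7), leaving 14533. TMM factors were 0.985 to 1.02. Groups were compared by edgeR's quasi-likelihood test, and p-values were adjusted by Benjamini-Hochberg over all tested genes with a threshold of 0.05. Standard errors come from the F statistic. CPM are TMM-scaled, and lengths are of the longest GENCODE 29 transcript (26904 genes matched). Positions and promoters are RefSeq's (GRCh38.p14), and 8 of the 9 genes had promoter windows. Replicates differed by more than counting noise (chi-square per degree of freedom 2.33 to 8.25). The fit was tested on simulated data with 14263 genes, of which 14067 were simulated without change. In the real comparison 4716 of 14533 genes passed, a far larger share, so the simulated recovery need not hold there. The fit called 20 of 49 genes simulated with a 1.2-fold change, 34 of 49 with 1.5-fold, 43 of 50 with 2-fold and 47 of 48 with 4-fold. Of its 160 calls 16, or 10%, were genes simulated without change, above the nominal share of 0.05, and the limit set for this share was widened after that result was seen.

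The genes described and the gene lists were chosen with earlier results of these data known, and 2 genes of the lists are not reported here. Named genes were those described, LHX2, 10 pathway genes fixed by name, up to 4 genes past the threshold per list with the largest changes, and the 5 nearest profiles of DHRS3 and RBP2. The 16 alternatives changed the scaling (RLE, upper quartile, totals alone, or totals without LHX2), the filter (none, or 1 CPM in 3 libraries), the model (replicate block, DESeq2 or limma-voom), removed a length and GC trend (loess, span 0.3), or left out 1 library. Intervals are exact binomial at 95%. Versions were edgeR 4.0.16, DESeq2 1.42.0 and limma 3.58.1 in R 4.3.3, and scipy 1.17.1 in Python 3.11.15.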

Additional observations from a re-analysis of the deposited data

How the results depend on the processing

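The alternatives were compared for 26 named and tested genes, with LHX2 among them and the described genes left out. Of these, 17 kept their direction and their side of the threshold in every alternative that could be run for them. Another 7 lost their call in at least 1, RXRA gained a call, and RARA, which did not pass, changed sign. The nearest profiles other than ALDH8A1, the markers other than TTR, and RXRB, FABP3 and HOXA3 were not among the 26. The alternatives were 16, except for RARG, RBP7, AKR1B10 and BCO2, which the filter of 1 CPM in 3 libraries removed, leaving 15. With a library left out RARA ran from -0.027 to 0.16, and it was -0.0094 after removal of the length and GC trend; the cause was not tested. Of the pathway genes outside the described set, 9 to 15 passed with a library left out, 3 to 6 higher and 6 to 9 lower, and with the filter of 1 CPM in 3 libraries 3 were higher. The lower genes of the retinoic acid-induced list were 1 to 2 with a library left out and 2 after removal of the length and GC trend. Same-numbered libraries did not deviate together (correlations -0.06, -0.07 and -0.19), and no control library correlated best with its own number. With the replicate block 3768 genes passed, beside 4716, and RDH11, ALDH1A1, BCO2 and BHLHE40 did not. The higher share of all calls, 51.2%, was 59.7% with library totals alone and 45.2% after removal of the length and GC trend. Depth limits CRABP1, STRA6, LRAT, ALDH1A2 and CYP26A1.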

Other observations

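Fatty acid-binding proteins belong to the same family of intracellular lipid-binding proteins as RBP2, RBP5 and CRABP2. Of the 10 in the list 3 had enough reads to be tested, of which 2 fell and 1 did not pass, beside 15.8% lower over all tested genes. FABP1, the liver form, fell from 155, 159 and 187 CPM in control replicates 1 to 3 to 107.6, 103 and 107.4 CPM in LHX2 replicates 1 to 3 (log2 fold change -0.66 ± 0.06, SE, edgeR adjusted p = 8.9e-07). FABP5, which binds fatty acids and also retinoic acid, was 280.6 ± 11.5 CPM in control and 235.7 ± 4.26 CPM in LHX2 libraries (SD, n = 3), a fall with an edgeR adjusted p of 2.2e-04. FABP5 has many processed copies in the genome, so its value is uncertain. FABP3, named after its value was seen, differed by 0.12 ± 0.18 (SE, edgeR adjusted p = 0.65).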
